A study of Mus musculus with 30 samples.

Results

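The 47 genes described here are transcription factors that pattern the embryo outside the Hox clusters: listed Pax, Lhx, Nkx, Dlx, Irx, Meis, Tbx and Fox genes together with Six2, Six3, En1, En2, Barx1, Barx2, Alx4, Emx2, Otp, Sim1, Sim2, Lmx1b, Meox1 and Pitx1. They were followed in mouse embryonic stem (ES) cells of 2 genotypes, those with floxed Jmj alleles (Fl/Fl, called wild type in the labels) and Jmj mutants (-/-, called null here), on 30 Affymetrix arrays. Jmj, or Jumonji, is the gene now named Jarid2. LIF, the cytokine that keeps mouse ES cells undifferentiated, was withdrawn, and RNA was taken at days 0, 2, 4, 6 and 8. There were 2 Fl/Fl arrays for every day. The null arrays numbered 3 for day 0, 5 for each of days 2, 4 and 6, and 2 for day 8. Each gene was read by the brightest of its probe sets under the platform's symbol, and 46 of the 47 could be measured, out of 18194 genes in all. Pax2 had no probe set that names it alone, so its expression is not analysed here and it enters only the promoter counts. All values are deposited intensities on a linear scale. The labels call the replicates biological, but the sources used here do not say how many lines or clones lie behind each genotype, or whether replicates were separate cultures. The p-values therefore rest on a spread among arrays that may be technical.

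Polycomb repressive complex 2 (PRC2) methylates lysine 27 of histone H3, and in ES cells this mark lies over CpG-rich promoters of many developmental transcription factors that are silent there. Polycomb repressive complex 1 binds the mark through its Cbx subunits. Jarid2 binds PRC2 and helps bring it to such promoters. Many of these factors are known as Polycomb targets in ES cells and are switched on in restricted lineages as the embryo is patterned. The files hold expression values only, so neither the mark nor Polycomb binding was measured here.

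The promoters of 6 of these genes are shown for how CpG content varies among the factors, here from 7 to 29 CG. They are those of the 4 genes that left the array floor by their brightest probe sets (Six2, Irx3, Meis2 and Foxf2). The others are Six3 and Foxc1, chromosomal neighbours of Six2 and Foxf2. Sequences are the 250 bases before the start site in RefSeq on GRCm38.p6, written 5′ to 3′ on the gene's own strand, with every CG dinucleotide in capitals. Six2 lies at chr17:85688255-85688504 on the minus strand and holds 26 CG, and its neighbour Six3 at chr17:85620584-85620833 on the plus strand holds 10. Irx3 at chr8:91801655-91801904 (minus strand) holds 13 and Meis2 at chr2:116064620-116064869 (minus strand) holds 7. The neighbours Foxf2, at chr13:31625566-31625815, and Foxc1, at chr13:31806396-31806645, both on the plus strand, hold 21 and 29.
Six2: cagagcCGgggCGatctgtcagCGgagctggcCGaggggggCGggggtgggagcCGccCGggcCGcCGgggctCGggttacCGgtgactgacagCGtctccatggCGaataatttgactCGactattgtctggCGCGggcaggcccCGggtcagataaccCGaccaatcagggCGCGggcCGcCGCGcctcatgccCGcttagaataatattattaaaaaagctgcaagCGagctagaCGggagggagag
Six3: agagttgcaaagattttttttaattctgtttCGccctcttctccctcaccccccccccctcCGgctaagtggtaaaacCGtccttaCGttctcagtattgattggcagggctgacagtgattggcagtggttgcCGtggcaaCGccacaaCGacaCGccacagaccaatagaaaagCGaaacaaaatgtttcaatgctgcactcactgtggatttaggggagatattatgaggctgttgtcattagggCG
Irx3: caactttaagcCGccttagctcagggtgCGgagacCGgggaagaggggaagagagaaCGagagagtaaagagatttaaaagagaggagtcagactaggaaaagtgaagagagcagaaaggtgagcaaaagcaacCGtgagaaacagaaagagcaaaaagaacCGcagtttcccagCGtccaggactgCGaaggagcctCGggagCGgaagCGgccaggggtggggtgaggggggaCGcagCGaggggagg
Meis2: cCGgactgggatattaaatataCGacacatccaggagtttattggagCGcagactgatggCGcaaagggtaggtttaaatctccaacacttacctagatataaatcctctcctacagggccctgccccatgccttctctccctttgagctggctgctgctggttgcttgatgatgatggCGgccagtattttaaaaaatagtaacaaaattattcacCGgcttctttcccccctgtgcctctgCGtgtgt
Foxf2: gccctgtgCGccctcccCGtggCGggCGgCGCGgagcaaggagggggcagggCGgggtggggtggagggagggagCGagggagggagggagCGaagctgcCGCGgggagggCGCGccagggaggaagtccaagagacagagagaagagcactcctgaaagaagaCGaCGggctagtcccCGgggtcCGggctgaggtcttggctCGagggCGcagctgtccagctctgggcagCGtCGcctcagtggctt
Foxc1: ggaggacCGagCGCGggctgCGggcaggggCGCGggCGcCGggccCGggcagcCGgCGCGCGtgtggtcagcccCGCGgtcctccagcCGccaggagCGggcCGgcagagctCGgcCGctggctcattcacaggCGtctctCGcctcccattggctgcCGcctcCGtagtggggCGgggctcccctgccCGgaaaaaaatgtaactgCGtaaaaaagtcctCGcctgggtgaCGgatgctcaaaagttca

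Over the 30 of 47 factors with a promoter in the RefSeq table, the median number of CG was 16.5, with a range of 4 to 40. It was 6 over 27025 genes of that table and 14 over 50 other members of the same families. At least 10 CG stood in the promoters of 23 of the 30 factors (76.7%) and in 38.2% of all 27025. The motif TATAAA, searched on both strands, was present in 3 of the 30 (Meis2, Sim1 and Tbx4) and in 13% of all promoters. The 4 genes that left the array floor, as defined next, had 7 to 26 CG, within the range of those that stayed on it.

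Most of these factors never rose above the array floor in either genotype. A gene was called off the floor in a group when every array of that group read 50 or more by the gene's brightest probe set. By that measure 41.4% of all genes were off the floor in Fl/Fl cells at day 0, and 48.5% never reached 50 on any of the 30 arrays. Of the 46 factors, 37 (80.4%) never reached 50 on any array, and their values ran from 3 to 49. Of 60 measured other members of the same families, 47 (78.3%) never did. Among the 37 factors, other probe sets of Foxc1 and Pitx1 did pass 50, reaching 124 and 73 in Fl/Fl. For 20 of the 46 factors all 30 values lay within 2 units of each other. These were Pax5, Pax7, Pax8, Lhx2, Lhx5, Lhx9, Nkx6-1, Dlx1, Dlx5, Irx1, Meox1, Foxc2, Foxb1, Barx1, Barx2, Alx4, Otp, Sim1, Sim2 and Lmx1b. For genes this close to the floor a difference of 1 unit in the rounded values is most of what can be seen, and small calls among them rest on that unit.

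The day on which a factor left the floor was late. In Fl/Fl cells 0 of 46 were off the floor at days 0, 2 and 4 (41.4%, 41.2% and 42.4% of all genes were), 1 at day 6 (Six2; 42.9% of all genes) and 3 at day 8 (Irx3, Meis2 and Foxf2; 42.2% of all genes). In null cells 0 were off the floor on any of the 5 days, where 38.9%, 38.5%, 38.4%, 39.5% and 39.6% of all genes were. Single null arrays did pass 50 for 3 factors at day 6 (Six2, Meis1 and Meis2) and for 7 at day 8 (those and Nkx2-9, Irx2, Foxf1 and Foxl2). The rule asks more of the 3 or 5 null arrays of days 0 to 6 than of 2 Fl/Fl arrays. The counts of the genotypes are therefore not alike in strictness before day 8. By group mean, Six2 stood at 59 in null at day 6, and Six2 and Meis2 at 51 and 86 at day 8. With the limit at 25 the Fl/Fl counts were 4 at day 0 (Pax3, Pax9, Foxf1 and Foxf2) and 6 at day 8. With the limit at the 95th percentile of 39 olfactory receptor genes, a family that ES cells are not known to use, they were 9 and 15.

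**Figure D1:**
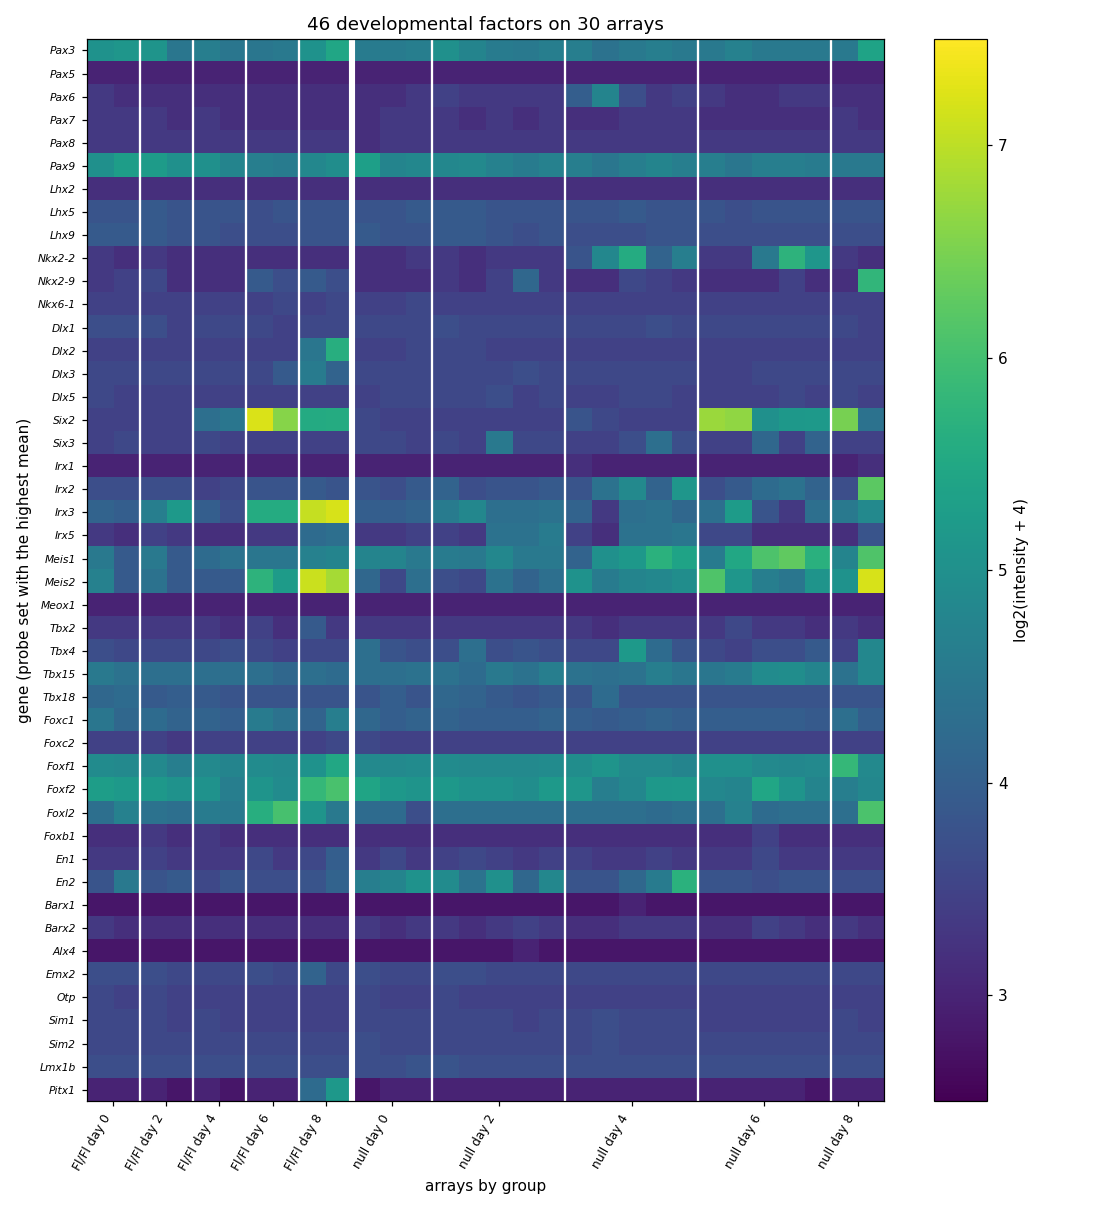
Colour gives log2(intensity + 4) of the 46 measured factors, 1 gene per line and 1 column for each of the 30 arrays, with white lines between the 10 groups and a wide one between Fl/Fl and null. Most lines stay dark in every group, and the bright cells of Six2, Irx3 and Meis2 lie at days 6 and 8.

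At day 0, before LIF was withdrawn, none of the 46 factors passed the test between the genotypes in either direction. The test was limma's moderated test on log2(intensity + 4), with Benjamini-Hochberg adjustment over all 18194 genes and a threshold of 0.05. It called 0 factors higher and 0 lower in null, against 0.247% of all genes higher and 0.929% lower. Unadjusted, 3 of the 46 had a p under 0.05, and the smallest adjusted p was 0.136. The median log2 difference was 0 for the factors and -0.01 for all genes. The highest value of any factor on any day 0 array was 39, for Foxf2, a forkhead factor of gut and palate mesenchyme, on null replicate 1. The ES cell markers were as labelled: 10 of 10 were off the floor at day 0 in both genotypes. Of 10 trophoblast and simple epithelium markers, 0 were higher and 4 lower in null at day 0 (median log2 difference -0.91). Their sums were 7267 to 9067 in Fl/Fl and 1188 to 2085 in null. On the other marker lists 1 fibroblast and feeder marker and 1 neural progenitor marker were lower and 0 higher.

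En2, a homeobox factor of the midbrain and cerebellum, had the highest day 0 difference of the 46. It read 10 and 19 in Fl/Fl and 21, 23 and 29 in null, so the groups did not overlap. Its log2 difference was 0.65 (SE 0.37, adjusted p = 0.522 by limma), with a 95% interval of -0.12 to 1.42. At day 2 it read 10 and 11 in Fl/Fl and 26, 17, 28, 14 and 24 in null (log2 0.80, adjusted p = 0.426).

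Other day 0 differences went the other way. Tbx18, a T-box factor of somite and sinus mesenchyme, had the smallest adjusted p and read 14 and 15 in Fl/Fl against 10, 12 and 10 in null (log2 -0.34, adjusted p = 0.136). Pax3, which specifies neural crest and muscle precursors, read 29 and 31 against 20, 20 and 21 (log2 -0.48, adjusted p = 0.288). For 39 of the 46 the difference was within 0.25 of 0 on the log2 scale. The upper bound of the 95% interval lay under 1 on the log2 scale of the test for 40 factors. For the other 6 (En2, Meis1, Tbx4, Nkx2-2, Six2 and Irx2) the upper bound lay between 1.02 and 1.42 on that scale. By these intervals a rise up to that size is not excluded for these 6. The intervals pool the spread of all 10 groups and do not measure the spread at day 0 alone. On the day 0 arrays Six2 read 7 and 7 in Fl/Fl and 8, 7 and 7 in null. Nkx2-2 read 6 and 5 against 5, 5 and 6, and Irx2 9 and 9 against 10, 9 and 11. The scale understates folds of dim genes, so a bound under 1 does not exclude a 2-fold rise in their intensity. Across 44 settings of the processing and of the arrays used, 0 called a factor higher in null at day 0 and 5 called 1 or more of Dlx1, Pax8, Pax9 and Tbx18 lower.

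**Figure D2:**
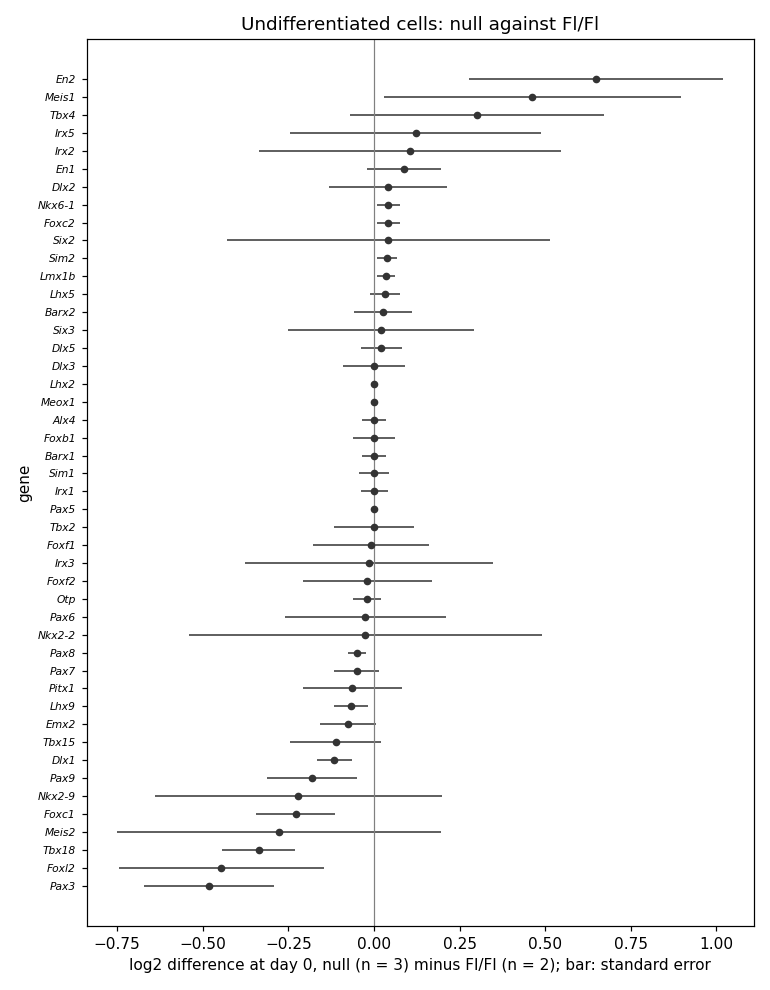
Points give the log2 difference of null (n = 3 arrays) minus Fl/Fl (n = 2) at day 0 for each of the 46 factors in order of size. Bars give the standard error from limma, which pools the spread of all 10 groups. The points run from -0.48 for Pax3 to 0.65 for En2, and 39 lie within 0.25 of 0.

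After LIF withdrawal, Fl/Fl cells turned on a small and mixed set of mesenchymal and patterning factors. At day 2 limma called 0 of 46 higher and 0 lower than at day 0 (3 had an unadjusted p under 0.05; 1.24% of all genes rose and 1.91% fell). At day 4, 0 rose and 1, Tbx18, fell (8.01% and 10.5% of all genes). At day 6, 3 rose and 5 fell, and at day 8, 8 rose (17.4%) and 2 fell. Among all genes 13.4% rose and 19.2% fell at day 6, and 15% rose and 18.6% fell at day 8. The share of factors that rose was therefore near that of all genes at day 8. The median change at day 8 was 0 for the factors and -0.05 for all genes.

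Six2, the homeobox factor that maintains kidney progenitors, was off the floor at day 6 and was called there together with Irx3 and Foxl2. It read 7 on each Fl/Fl array at days 0 and 2, 16 and 18 at day 4, 145 and 93 at day 6, and 43 and 44 at day 8. Both day 6 arrays stood above all other Fl/Fl arrays for this gene. The day 4 difference did not pass (log2 0.93, adjusted p = 0.241). The rise over day 0 was log2 3.45 at day 6 (SE 0.52, adjusted p = 3.3e-05) and 2.11 at day 8 (SE 0.52, adjusted p = 0.00288).

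Irx3, an Iroquois homeobox factor of neural tube, heart and limb patterning, read 13 and 12 at day 0, 21 and 33 at day 2, 12 and 9 at day 4, 44 and 44 at day 6, and 130 and 142 at day 8. The day 8 pair stood well above every other array of either genotype. At day 2 both arrays lay above day 0, but the difference did not pass (log2 0.88, adjusted p = 0.315). Its rise was log2 1.54 at day 6 (SE 0.40, adjusted p = 0.00493) and 3.08 at day 8 (SE 0.40, adjusted p = 3.36e-06). Meis2, a homeodomain cofactor of Hox proteins, read 22 and 11 at day 0, 17 and 11 at day 2, 11 and 11 at day 4, 49 and 34 at day 6, and 134 and 109 at day 8 (log2 2.66, SE 0.52, adjusted p = 0.000357 at day 8). A second Meis2 probe set followed the same course, with 7 and 7 at day 0 and 108 and 114 at day 8. The remaining Meis2 probe sets did not, and read 5 or 6 on all 30 arrays.

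Foxf2 was the closest to the limit of 50 at day 0, and its fold was the smallest among the 4 genes that left the floor. It read 35 and 33 at day 0, stayed between 21 and 32 at days 2 to 6, and read 53 and 63 at day 8. Its rise was log2 0.70 (SE 0.21, adjusted p = 0.0112), which was lost without Fl/Fl day 8 replicate 2 (adjusted p = 0.107). A second Foxf2 probe set did not follow it, with 16 and 15 at day 0 and 12 and 11 at day 8.

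Pitx1, which sets hindlimb identity and acts in the pituitary, and the Distal-less genes Dlx2 and Dlx3, of the branchial arches, forebrain and ectoderm, also rose at day 8 but stayed under 50. Pitx1 read 3 or 4 on each Fl/Fl array up to day 6 and 15 and 32 at day 8 (log2 1.71, SE 0.16, adjusted p = 4.87e-08). Dlx2 read 7 on each Fl/Fl array up to day 6 and 18 and 46 at day 8 (log2 1.59, SE 0.19, adjusted p = 1.17e-06). Dlx3 read 8 up to day 6, apart from 11 on 1 day 6 array, and 20 and 13 at day 8 (log2 0.75, SE 0.10, adjusted p = 5.09e-06). These 3 genes were flat and then rose on both day 8 arrays. When only the Fl/Fl arrays of days 0 and 8 were fitted, Six2 and Irx3 passed (adjusted p = 0.00612 and 0.00712), and Meis2 (0.0529), Foxf2 (0.0614), Pitx1 (0.119), Dlx3 (0.158), Dlx2 (0.186) and En1 (0.242) did not.

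Foxl2, a forkhead factor of ovary, eyelid and pituitary, rose at day 6. It read 16 and 22 at day 0, 46 and 62 at day 6 and 30 and 19 at day 8 (log2 1.33 at day 6, SE 0.33, adjusted p = 0.00353). En1, a homeobox factor of midbrain and limb ectoderm, rose by log2 0.47 at day 8 (SE 0.12, adjusted p = 0.00358) on readings of 6 and 6 at day 0 and 8 and 12 at day 8. That call was lost without Fl/Fl day 8 replicate 2 (adjusted p = 0.142). The factors that fell did so from low levels. Pax3 read 18 and 19 at day 6 (log2 -0.60), Pax9, of pharyngeal pouch and tooth, went from 28 and 35 to 21 and 20 (log2 -0.53), and Lhx9, Dlx1 and Tbx18 fell by 0.21, 0.18 and 0.40 on the log2 scale at day 6. At day 8 Tbx18, with 10 and 10, stood log2 -0.40 from day 0, and Sim1, of the hypothalamus, log2 -0.13, which is 1 unit of intensity. Both day 8 falls were lost when an array was left out, without Fl/Fl day 0 replicate 2 for Tbx18 (adjusted p = 0.0711) and without Fl/Fl day 8 replicate 2 for Sim1 (adjusted p = 0.149).

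**Figure D3:**
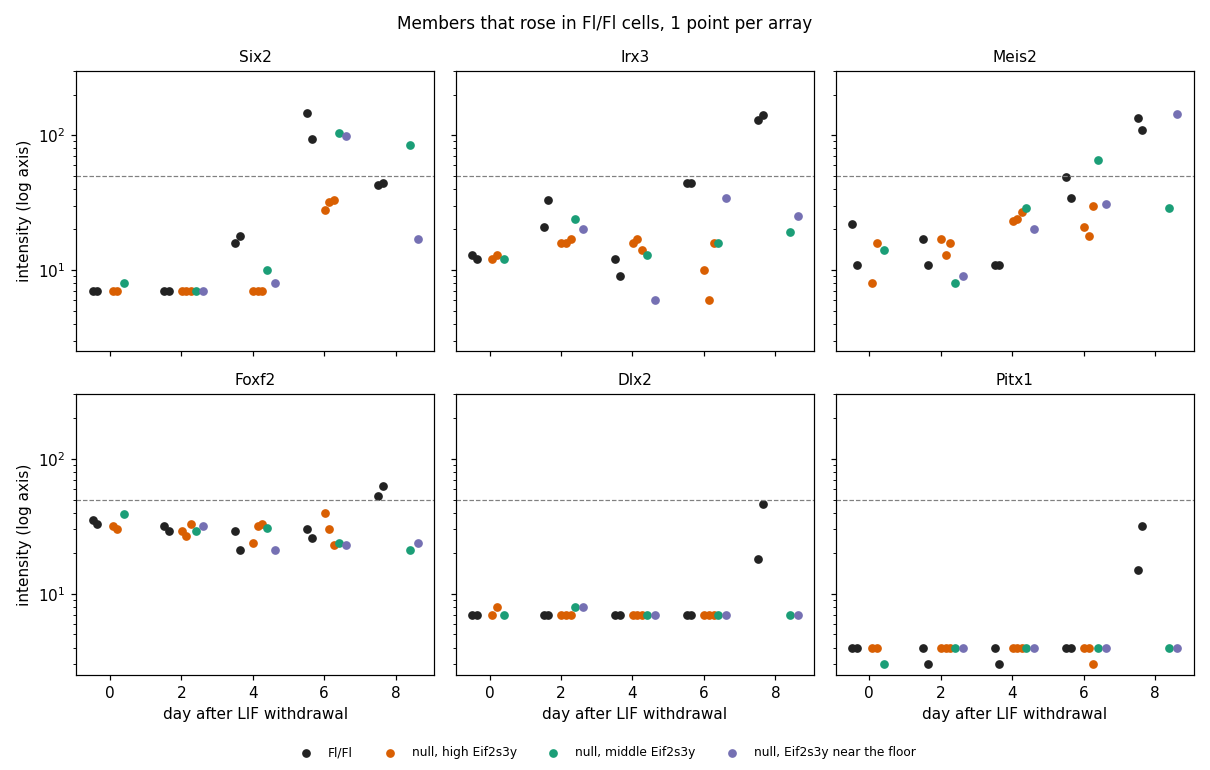
Each point is the intensity of 1 array, on a log axis, against the day after LIF withdrawal, for 6 factors that rose in Fl/Fl cells. Black points are Fl/Fl, and the coloured points are null arrays in 3 sets by their level of the Y-linked gene Eif2s3y. The dashed line marks the floor limit of 50. At day 8 the Fl/Fl arrays of Irx3, Foxf2, Dlx2 and Pitx1 lie above every null array.

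Markers of other cells moved with these rises. The summed intensity of 14 fibroblast and feeder cell markers was 337 to 678 in Fl/Fl at day 0, 2860 to 3263 at day 6 and 12704 to 16692 at day 8, when 9 of 14 were off the floor and Col6a3, Lum, Dcn, Thy1 and Prrx1 stayed on it on both arrays. The sum of 12 markers of paraxial, lateral and limb mesoderm was 1052 to 1080 at day 0, 4113 to 4157 at day 6 and 4438 to 4763 at day 8. The sum of 11 primitive streak markers was 147 to 177 at day 0, 4221 to 4540 at day 4, 4153 to 5529 at day 6 and 447 to 832 at day 8. That of 10 trophoblast and simple epithelium markers was 7267 to 9067 at day 0, 30436 to 32843 at day 4, 55737 to 63662 at day 6 and 54725 to 55728 at day 8, and that of 10 ES cell markers was 64581 to 72159 at day 0 and 2623 to 5749 at day 8. In null the fibroblast sum was 376 to 541 at day 6 and 864 to 1850 at day 8, and the mesoderm sum 374 to 2150 and 1598 to 2597. Their part in the rises of the factors was not tested. In such bulk RNA, more cells of a type and more RNA per cell cannot be told apart.

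For Foxc1 and Foxf1, forkhead factors of head, somite and gut mesenchyme, the choice of probe set decided what was seen. The brighter Foxc1 probe set read 11 to 21 on all 30 arrays. Its other probe set read 8 and 7 in Fl/Fl at day 0, 7 and 8 at day 2, 18 and 19 at day 4, 124 and 69 at day 6 and 49 and 15 at day 8, and at most 26 on any null array. In limma over probe sets its day 6 rise in Fl/Fl was log2 3.07 (adjusted p = 2.89e-06) and its day 6 difference, null minus Fl/Fl, was -2.47 (SE 0.31, adjusted p = 2.13e-05). By that probe set Foxc1 was off the floor at day 6.

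The brighter Foxf1 probe set read 21 to 41 in Fl/Fl and 23 to 53 in null. The other read 7 on every array of both genotypes at days 0 to 4, then 19 and 14 at day 6 and 53 and 188 at day 8 in Fl/Fl, against 13, 13, 7, 7 and 7 at day 6 and 37 and 7 at day 8 in null. Its day 8 rise in Fl/Fl was log2 3.25 (adjusted p = 6.67e-06), and null lay below Fl/Fl at day 8 by log2 -2.30 (SE 0.43, adjusted p = 0.0032). By that probe set Foxf1 was off the floor in Fl/Fl at day 8. The second Pitx1 probe set read 33 and 73 in Fl/Fl at day 8 and 3 or 4 on all 28 other arrays, the same pattern as the first. In all, 23 factors had more than 1 probe set. The calls of Meis1, Tbx15, Foxl2 and Pax6 given elsewhere rest on the brightest probe set of each. Over all 30 arrays the other Meis1 probe sets read 5 or 6 and 11 to 14, and that of Tbx15 5 or 6. The other Foxl2 probe set read 3 throughout, and the other Pax6 probe sets read 4 to 9.

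**Figure D4:**
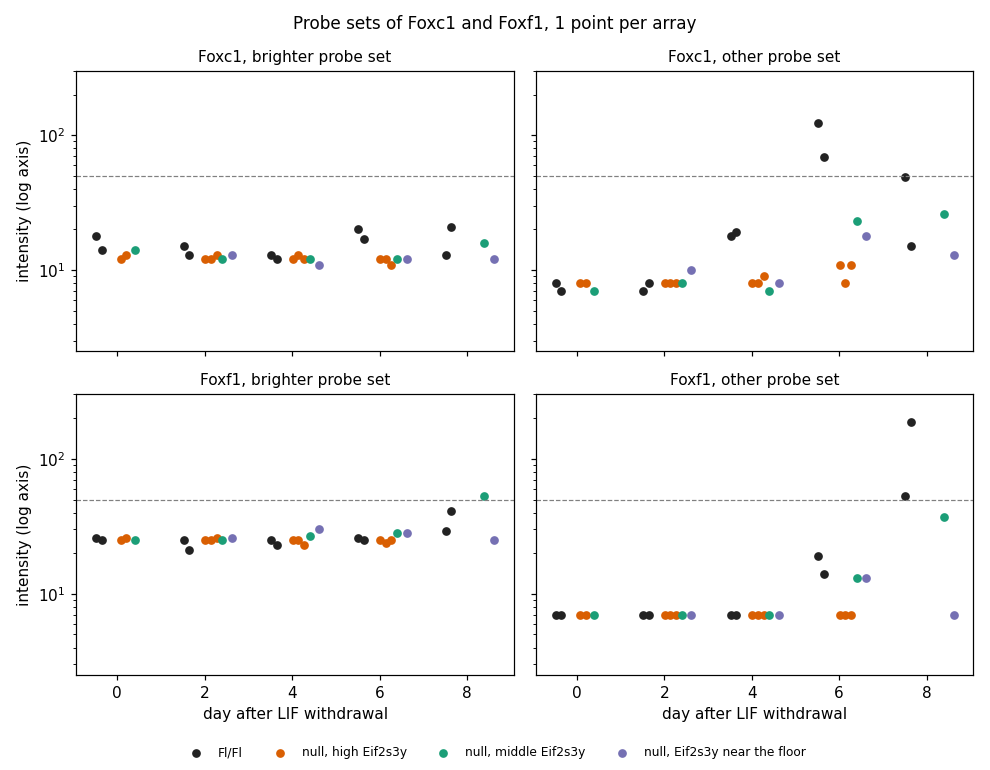
Each point is the intensity of 1 array, on a log axis, by day after LIF withdrawal, for both probe sets of Foxc1 (upper panels) and Foxf1 (lower panels). Black points are Fl/Fl and coloured points null. The brighter probe sets are nearly flat, whereas the other Foxc1 probe set reaches 124 at day 6 and the other Foxf1 probe set 188 at day 8 in Fl/Fl.

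The null arrays did not form 1 uniform group, which bears on every result in null cells. Eif2s3y, a gene on the Y chromosome, read 130 to 234 in Fl/Fl, 594 to 981 on 11 null arrays, 217 to 365 on 5 and 11 to 16 on 4. Tmem87a read 172 to 348 on the 11 arrays and 9 to 12 on all others. These 3 sets were formed from the data and are not groups of the study. Days 2, 4 and 6 held 3 high, 1 middle and 1 low array each, day 0 held 2 high and 1 middle, and day 8 held 1 middle (replicate 1) and 1 low (replicate 2). Jarid2, the targeted gene, was not lower on the arrays labelled null: it read 3335 and 3340 in Fl/Fl and 4082, 2943 and 2872 in null at day 0. It was called higher in null at day 4 (log2 0.91, adjusted p = 0.0149), at day 6 (0.89, adjusted p = 0.0186) and averaged over days (0.57, adjusted p = 0.001). Whether its probe sets cover what was deleted is unstated in the sources used here, so this level does not check the labels, and null below always means an array labelled so.

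In null cells the course after LIF withdrawal was more scattered, and no factor was off the floor on every array of a day. At day 2 limma called 0 higher and 0 lower than at day 0 (3 had an unadjusted p under 0.05; 2.4% and 3.02% of all genes were called). At day 4, 2 rose and 1 fell (6.36% and 8.34% of all genes), at day 6, 5 rose and 4 fell (12.2% and 18%), and at day 8, 6 rose and 4 fell (14.9% and 18.5%). With arrays centred on their brighter genes the day 8 split was 5 and 2 (2620 and 3272 among all genes). With quantile normalization it was 4 and 4 (2789 and 3429 among all genes). None of the 10 day 8 calls outlived leaving out each array in turn, and 0 of 10 passed with the null arrays of days 0 and 8 alone. The day 8 pair holds 1 array of the middle set and 1 of the low set, whereas day 0 holds high and middle arrays. Day and set are therefore mixed in this comparison.

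Six2 rose in null too, on every array of days 6 and 8 but to different heights. It read 7 or 8 at days 0 and 2, 10, 8, 7, 7 and 7 at day 4, 104, 98, 28, 32 and 33 at day 6, and 85 and 17 at day 8. At day 6 the middle and low arrays (replicates 1 and 2) lay within the Fl/Fl range, and the 3 high arrays lay below it. The rise was log2 2.26 at day 6 (SE 0.38, adjusted p = 8.53e-05) and 1.93 at day 8 (adjusted p = 0.00288, and 0.17 without null day 8 replicate 1). Mesoderm markers moved with the same arrays: their sum at day 6 was 1923 and 2150 on the middle and low array and 374 to 508 on the high ones. The part of those markers was not tested.

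Meis1 and Meis2 rose in null at day 6. Meis1, which like Meis2 is a Hox cofactor, read 23, 23 and 19 at day 0, 13, 28, 32, 48 and 38 at day 4, 20, 41, 65, 74 and 47 at day 6, and 23 and 66 at day 8 (log2 0.95 at day 6, SE 0.35, adjusted p = 0.0433). In Fl/Fl it stayed between 11 and 23. Meis2 read 14, 8 and 16 at day 0, 66, 31, 21, 18 and 30 at day 6, and 29 and 143 at day 8. Its change was log2 1.06 at day 6 (SE 0.38, adjusted p = 0.0378) and 2.10 at day 8 (SE 0.47, adjusted p = 0.00147, and 0.146 without null day 8 replicate 2).

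The other day 8 rises in null each came from 1 array. Nkx2-9, of the ventral neural tube, read 5 and 51, Irx2, an Iroquois factor, 9 and 72, Foxl2 16 and 64, and Foxf1 53 and 25. Replicate 2, of the low set, was the bright array for Nkx2-9, Irx2, Foxl2, Meis1 and Meis2, and replicate 1, of the middle set, for Six2 and Foxf1. Their day 8 calls were log2 1.31 for Nkx2-9, 1.17 for Irx2, 1.14 for Foxl2 and 0.47 for Foxf1. Without the bright array the adjusted p was 1 for Nkx2-9, Irx2 and Foxf1 and 0.497 for Foxl2. These arrays stood apart on several marker lists. On replicates 1 and 2 the sum was 10777 and 1735 for ES cells, 9399 and 875 for primitive streak, 2597 and 1598 for paraxial, lateral and limb mesoderm, 666 and 1638 for neural progenitors, 864 and 1850 for fibroblasts and 38433 and 60231 for trophoblast and epithelium. Their part was not tested.

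En2 read 10, 10, 14, 20 and 48 in null at day 4, and the readings above 10 were those of the high Eif2s3y set. It was below its day 0 level by day 6, with 10, 10, 9, 10 and 10 (log2 -1.03, SE 0.30, adjusted p = 0.0114). At day 8 it read 9 and 9 (log2 -1.11, adjusted p = 0.0243), a call lost without null day 8 replicate 2. Foxf2 moved down in null, where it had risen in Fl/Fl: it read 39, 32 and 30 at day 0 and 21 and 24 at day 8 (log2 -0.50, SE 0.19, adjusted p = 0.0448, and 0.206 without null day 8 replicate 1). Pax9 fell by 0.44 on the log2 scale by day 8, to 19 on both arrays, and Lhx9 by 0.14, which is about 1 unit. Without null day 0 replicate 1 the adjusted p of Pax9 was 0.0822.

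Between the genotypes, most differences that passed the test lay at days 6 and 8 and were lower in null, at day 6 at about the share of all genes. At day 2 limma called 0 factors in either direction (4 had an unadjusted p under 0.05; 0.104% of all genes were higher and 0.517% lower). At day 4, 1 was higher and 0 lower (4.18% and 7.43% of all genes), at day 6, 1 and 3 (3.47% and 6.46%), and at day 8, 0 and 6 (0.709% and 1.8%). The 3 lower at day 6 were 6.52% of the factors, near the share of all genes, and the 6 lower at day 8 were 13%. With arrays centred on their brighter genes the day 6 split was 2 and 2 (994 and 1034 among all genes).

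At day 8 the 6 were Irx3, Pitx1, Dlx2, Foxf2, Dlx3 and En1. Irx3 read 130 and 142 in Fl/Fl and 19 and 25 in null (log2 -2.44, SE 0.40, adjusted p = 0.000773). Pitx1 read 15 and 32 against 4 and 4 (log2 -1.71, SE 0.16, adjusted p = 3.34e-07). Dlx2 read 18 and 46 against 7 and 7 (log2 -1.59, SE 0.19, adjusted p = 1.39e-05). Both null arrays lay below both Fl/Fl arrays in each case, and for Pitx1 and Dlx2 the null values lay within those of null day 0.

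Foxf2 read 53 and 63 against 21 and 24 (log2 -1.22, SE 0.21, adjusted p = 0.00118), and Dlx3 20 and 13 against 8 and 8 (log2 -0.75, SE 0.10, adjusted p = 6.76e-05). En1 read 8 and 12 against 6 and 6 (log2 -0.47, SE 0.12, adjusted p = 0.0341). The calls of Irx3, Pitx1, Dlx2, Foxf2 and Dlx3 held with any 1 of the 30 arrays left out, and that of En1 was lost without Fl/Fl day 8 replicate 2 (adjusted p = 0.56). The standard errors pool the spread of all 10 groups, most of which sat on the floor for Pitx1, Dlx2 and Dlx3. In a fit of the 4 day 8 arrays alone none of the 6 passed (adjusted p = 0.105 for Irx3, 0.225 for Foxf2 and 0.593 to 0.824 for the other 4), and the only factor called was Lhx9, at log2 -0.11 (adjusted p = 0.0339). The log2 differences of Six2 (-0.14, SE 0.52) and Meis2 (-0.84, SE 0.52) missed the threshold. The fibroblast marker sum differed between the same groups, as given beside the Fl/Fl rises, and its part in these differences was not tested.

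At day 6 Irx3, Foxl2 and Foxc1 were lower in null and Tbx15, a T-box factor of limb and dermis, was higher. Irx3 read 44 and 44 in Fl/Fl and 16, 34, 10, 6 and 16 in null (log2 -1.38, SE 0.33, adjusted p = 0.00942). Foxl2 read 46 and 62 against 16, 22, 15, 16 and 16 (log2 -1.46, SE 0.27, adjusted p = 0.00138). Foxc1, by its brighter probe set, read 20 and 17 against 12, 12, 12, 12 and 11 (log2 -0.51, SE 0.11, adjusted p = 0.00346). Tbx15 read 16 and 14 against 18, 20, 26, 27 and 23 (log2 0.49, SE 0.12, adjusted p = 0.0129). For each of these genes the values of the 2 genotypes did not overlap. ES cell markers moved with the same groups: 5 of 10 were higher and 1 lower in null at day 6 (median log2 difference 1.21), with sums of 14371 to 21776 in null and 4501 to 4939 in Fl/Fl. The trophoblast and epithelium sum was 18301 to 38702 in null and 55737 to 63662 in Fl/Fl, and was already lower in null at day 0. The part of these markers was not tested.

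The day 6 calls rested on the pair of Fl/Fl arrays. Leaving out its replicate 2 gave an adjusted p of 0.108 for Irx3, 0.226 for Tbx15 and 0.0648 for Foxl2, and leaving out its replicate 1 gave 0.107 for Foxc1. With the arrays of day 6 alone Foxl2 and Foxc1 passed (adjusted p = 0.0115 and 0.0116) and Irx3 and Tbx15 did not (0.211 and 0.15). At day 4 Pax6, the homeobox factor of eye and neural tube, was called higher in null, with 5 and 5 in Fl/Fl and 12, 23, 9, 6 and 7 in null (log2 0.68, SE 0.22, adjusted p = 0.0444). The 2 brightest were the middle and the low array. Its adjusted p rose to 0.233 when Fl/Fl day 4 replicate 1 was left out, and leaving out any of 23 single arrays ended the call, as did fitting the day 4 arrays alone (0.431).

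Averaged over the 5 days, 2 factors were higher in null and 7 lower (7.76% and 15.5% of all genes). Meis1 (log2 0.69, SE 0.19, adjusted p = 0.0109) and Tbx15 (0.19) were higher. Irx3 (-0.81, SE 0.16, adjusted p = 0.00084), Pitx1 (-0.32), Dlx2 (-0.30), Pax9 (-0.24), Foxf2 (-0.23), Foxc1 (-0.22) and Dlx3 (-0.19) were lower. The call of Tbx15 was lost without null day 8 replicate 2 (adjusted p = 0.0626) and that of Foxf2 without Fl/Fl day 4 replicate 1 (0.134). This split turned with the scaling. With arrays centred on their brighter genes, which moved the median of all genes to 0.10, it was 20 higher and 2 lower. Among all genes 6006 were then higher and 2017 lower, against 1411 and 2813 in the main fit. With quantile normalization the split of the factors was 4 and 5, and that of all genes 2370 and 1994. The average is therefore a result for single genes with sizeable differences and not a direction for the factors as a group.

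The change from day 0 to day 8 itself differed between the genotypes for 5 factors, all with the smaller or opposite change in null, where 0.407% of all genes were higher and 0.687% lower. These were Irx3 (log2 -2.42, SE 0.54, adjusted p = 0.0264), Pitx1 (-1.64, SE 0.21, adjusted p = 8.15e-05), Dlx2 (-1.63, SE 0.25, adjusted p = 0.000831), Foxf2 (-1.20, SE 0.28, adjusted p = 0.035) and Dlx3 (-0.75, SE 0.14, adjusted p = 0.00408). The calls of Irx3 and Foxf2 were lost without Fl/Fl day 8 replicate 2 (adjusted p = 0.0937 and 0.167). Without the high Eif2s3y arrays those of Dlx2 (0.117), Dlx3 (0.142) and Pitx1 (0.0649) were lost. The null day 0 arrays included the high set, and the null day 8 arrays held only the middle and low sets. In null the change over days is therefore mixed with a change of set, and this contrast cannot tell them apart.

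Some factors separated the null arrays from each other by Eif2s3y set. Nkx2-2 and Irx5 were picked out for this after their values were seen. Nkx2-2, of the ventral neural tube and endocrine pancreas, read 5 or 6 on every Fl/Fl array and every null array at days 0 and 2. It then read 10, 24, 44, 13 and 21 in null at day 4 and 6, 6, 19, 49 and 31 at day 6, and was back at 6 and 5 at day 8. At day 6 the 3 bright arrays were the 3 of the high set. Against day 0 it rose in null by log2 1.37 at day 4 (SE 0.41, adjusted p = 0.0289) and 1.18 at day 6 (SE 0.41, adjusted p = 0.0342), and against Fl/Fl it did not pass (1.42 at day 4, adjusted p = 0.0574, and 1.24 at day 6, adjusted p = 0.112).

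Irx5, which lies next to Irx3, read 5 to 7 in Fl/Fl up to day 6 and 15 and 16 at day 8. In null it read 7, 6, 17, 17 and 20 at day 2 and 7, 5, 17, 17 and 18 at day 4, with the 3 high arrays above and the other 2 at the Fl/Fl level, and 8, 8, 5, 5 and 5 at day 6. With all null arrays it did not pass at day 2 (log2 0.64, adjusted p = 0.58) or day 4 (0.80, adjusted p = 0.144). With the high set as the only null arrays its difference was 1.07 and 1.24, given as a description with no test, since the gene was chosen for this split.

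With only the high null arrays, 7 factors were higher and 1 lower in null at day 4 (10.5% and 14% of all genes), and 3 and 4 at day 6 (8.89% and 14.2%). The sets were themselves formed from the data, and Nkx2-2 and Irx5 were chosen for this split, so these counts describe the arrays. At day 4 Nkx2-2 (log2 1.60), Irx5, Irx2 (1.17), En2 (1.12), Meis1 (1.10), Meis2 (0.93) and Pax6 were higher in null and Six2 lower (-0.93). At day 6 Nkx2-2 (1.96), Meis1 (1.56) and Tbx15 were higher and Six2 (-1.78), Irx3, Foxl2 and Foxc1 lower. Without the high arrays 2 were higher at day 4, Pax6 and Nkx2-2 (2.19% of all genes higher, 2.9% lower), and none of the 4 day 6 calls passed (0.775% and 0.918%). At day 0 only the high arrays gave 0 higher and 2 lower, Pax9 and Tbx18 (3.42% and 10.9% of all genes). In the fit with only the high arrays the standard error of Six2 at day 6 was 0.12, against 0.43 with all. No Fl/Fl array belonged to such a set, so set and genotype cannot be told apart there. The neural progenitor marker sum (11 genes) at day 6 was 970 to 1433 on the high arrays, 735 and 751 on the other null arrays and 949 to 1126 in Fl/Fl, and its part in the levels of Nkx2-2 was not tested.

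**Figure D5:**
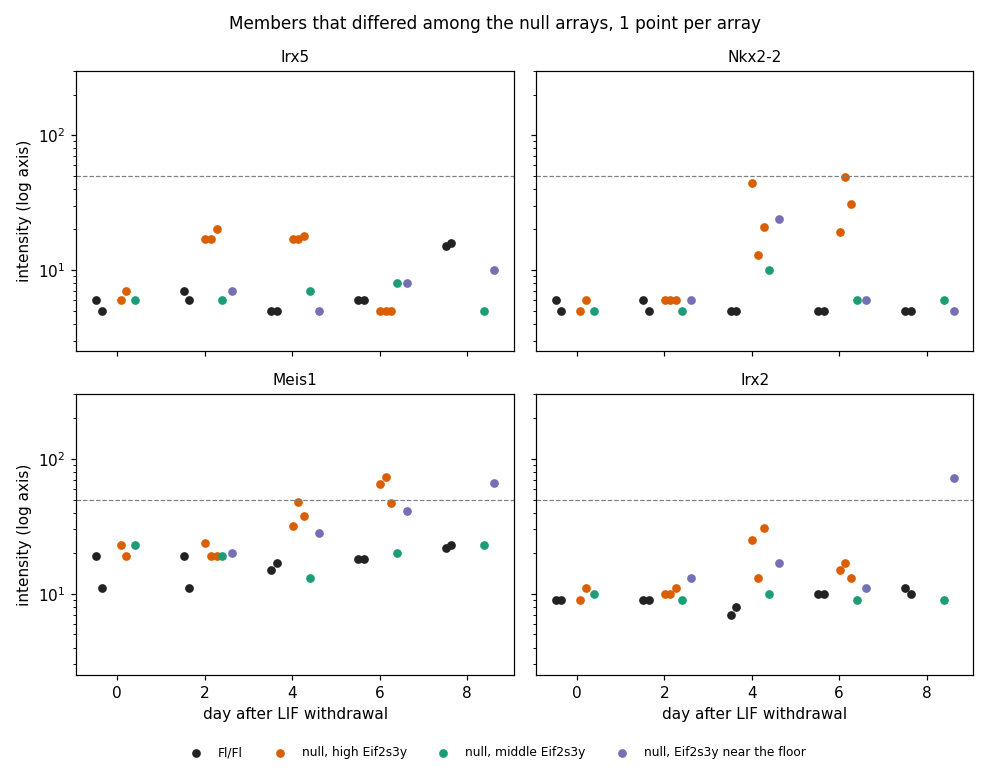
Each point is the intensity of 1 array, on a log axis, by day after LIF withdrawal, for 4 factors that differed among null arrays. Black points are Fl/Fl and coloured points the 3 sets of null arrays by Eif2s3y. The high set stands above the other arrays for Irx5 at days 2 and 4 and for Nkx2-2 and Meis1 at day 6.

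The courses of neighbouring factors are given here side by side, each gene against its own other arrays. In GRCm38.p6 7 pairs had no protein-coding gene between them. Next to Six2, Six3, of the forebrain and eye, read 7 or 8 on every Fl/Fl array and at most 19 in null. Next to Irx3, which rose in Fl/Fl by log2 3.08 at day 8, Irx5 went from 6 and 5 at day 0 to 15 and 16 at day 8, in the same direction, without passing the test (log2 1.04, adjusted p = 0.0517). Next to Dlx2, Dlx1 read 8 and 8 at Fl/Fl day 8, 1 unit under day 0. Next to Foxf2, which rose in Fl/Fl at day 8, the second Foxc1 probe set was highest at day 6. Next to Nkx2-9, which read 5 and 51 in null at day 8, Pax9 read 19 and 19. Next to Irx2, with 9 and 72 there, Irx1 read 4 and 5. In the pair Tbx2 and Tbx4, Tbx2 read 5 to 11 on all arrays and Tbx4 7 to 33, with the 33 on null day 4 replicate 3.

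Some of the Polycomb genes themselves differed, with 30 of 32 listed subunits and H3K27 demethylases on the arrays. In each group 21 to 23 of the 30 were off the floor, and Ezh1, Phf1, Phf19, Cbx8 and Phc3 never were. At day 0, 0 were higher and 2 lower in null (0.247% and 0.929% of all genes): Pcgf5, a subunit of a variant PRC1, read 491 and 366 in Fl/Fl and 230, 157 and 142 in null (log2 -1.28, SE 0.23, adjusted p = 0.0058), and Phc2 read 412 and 548 against 197, 201 and 191 (log2 -1.26, SE 0.19, adjusted p = 0.00116). At day 6, 7 were higher and 3 lower (3.47% and 6.46% of all genes), with a median log2 difference of 0.18. Cbx7, the PRC1 subunit that reads the mark in undifferentiated ES cells, read 31 and 50 in Fl/Fl and 122, 137, 266, 206 and 243 in null (log2 2.13, SE 0.26, adjusted p = 1.76e-05). Bmi1 read 171 and 176 against 39, 59, 29, 30 and 34 (log2 -2.11, SE 0.31, adjusted p = 0.000137).

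From day 0 to day 8, 6 of the 30 rose and 12 fell in Fl/Fl (15% and 18.6% of all genes) and 6 rose and 15 fell in null (14.9% and 18.5%). The PRC2 core genes Ezh2, Suz12 and Eed fell in Fl/Fl by 1.62, 1.68 and 1.42 on the log2 scale and in null by 1.30, 1.01 and 1.74. For the list as a whole, 0 of 30 differed between the genotypes in that change by limma. Among all genes only 0.407% were higher and 0.687% lower, so few calls could be looked for in 30.

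Among other members of the same families, some were well above the floor. Of 60 measured, 4 to 8 were off the floor in each group (6.67% to 13.3%), and at day 0, 2 were higher in null and 0 lower (0.247% and 0.929% of all genes). Otx2, a homeobox factor of epiblast and forebrain, read 57 and 57 in Fl/Fl and 591, 554 and 473 in null (log2 3.15, SE 0.54, adjusted p = 0.00381). Foxd3, a forkhead factor of pluripotent cells and neural crest, read 16 and 19 against 33, 35 and 54 (log2 1.03, SE 0.18, adjusted p = 0.00424). Lhx1, of the primitive streak and mesoderm, read 292 and 443 in Fl/Fl and 7 on all 5 null arrays at day 4 (log2 -5.05, SE 1.01, adjusted p = 0.00191), and 525 to 4360 in null at day 6.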

How the data were processed

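RNA was read on 30 Affymetrix arrays, 1 per sample. The authors deposited 1 whole-number intensity per probe set and array, unlogged. Per the labels, biotin-labelled cRNA made from total RNA was hybridized; background correction, normalization and summary: not given in the sources used here. Array medians were 10 or 11, so no further scaling was applied. Of 45101 probe sets, 34958 name 1 gene; the one with the highest mean log2 stood for its gene. Values were taken as log2(intensity + 4), so folds of dim genes are understated. limma 3.58.1 (R 4.3.3) fitted 10 group means to the 30 arrays (residual degrees of freedom: 20), with two-sided moderated tests and Benjamini-Hochberg adjustment over 18194 genes. On simulated data it recovered 72% of genes changed by log2 1 and 95% of those changed by 2 at day 0, and 66% and 94% at day 8. Promoter letters and gene order are from RefSeq tables of GRCm38.p6, in which 47 of 47 symbols matched. The factors, lists and Eif2s3y sets were chosen with earlier results of these data known. Named genes are those called between the genotypes at any day or on average, the 8 largest rises and 4 largest falls called at day 8 in each genotype, chromosomal neighbours of another factor, and up to 6 genes of each list; factors named for days 4 or 6 against day 0, or for the Eif2s3y sets, were chosen after their values were seen. The number of arrays limits the precision. Alternatives are given in the closing section.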

Additional observations from a re-analysis of the deposited data

Results flagged for a closer look

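The day 8 minus day 0 change differed between the genotypes, by a test of the difference itself, for Irx3 (log2 -2.42), Pitx1 (-1.64), Dlx2 (-1.63), Foxf2 (-1.20) and Dlx3 (-0.75). All 5 rose in Fl/Fl, and in null 4 did not pass and Foxf2 fell. In null the change over days is mixed with a change of Eif2s3y set.

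Groups of 5 null arrays at days 2, 4 and 6 were examined for the 21 factors with a call between the genotypes or at day 8 (63 groups); the other 25 factors were not examined. In 15 of the 63, 1 array stood far from the others by Dixon's ratio of gap to range. Chance flags about 1 in 20 groups of continuous values, a rate that does not hold for tied whole numbers. In 11 of the 15 the ratio was 1.0 because the other 4 arrays held the same whole number. These were Dlx3, Pax6 and Sim1 at day 2, Foxl2, Sim1 and Tbx18 at day 4, and En1, En2, Foxc1, Nkx2-9 and Pitx1 at day 6, with the outlying array between 3 and 15. The other 4 were Foxl2 at day 6 (ratio 0.836, replicate 2 at 22), Meis1 at day 2 (0.784, replicate 3 at 24), Irx3 at day 4 (0.715, replicate 2 at 6) and Nkx2-9 at day 2 (0.71, replicate 4 at 14).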

How the results depend on the processing

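The 45 calls of single factors were recomputed under 13 alternatives besides leaving out arrays. Of these values 425 kept direction and side of the threshold, 96 kept direction only, and 1 reversed: Irx2 at day 8 against day 0 in null was -0.10 without the null arrays near the floor for Eif2s3y. With arrays left out in turn, 21 of the 45 calls held throughout and 24 did not. Calls close to 1 unit of intensity and those resting on groups of 2 arrays limit these results, and the cause of each change was not tested.

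Counts of called factors that moved by over 1.5 times follow, the count with all arrays in brackets. Null against Fl/Fl at day 0 (0): 1 with the 2 groups' arrays alone, 1 without the high Eif2s3y arrays, 2 with only those, 1 without the arrays near the floor. Day 2 (0): 2 with only the high arrays. Day 4 (1): 2 with offset 1, 0 with offset 16, 0 without the 40% dimmest genes (which leaves 13 factors), 2 with arrays centred, 2 with the mean of probe sets, 3 with the 2 groups alone, and 2, 8 and 3 without the high, with only the high and without the near-floor arrays. Day 6 (4): 0 without and 7 with only the high arrays. Day 8 (6): 2 without the dimmest genes and 1 with the 2 groups alone. Averaged (9): 22 with arrays centred and 2 without the high arrays. Within Fl/Fl, day 2 (0) gave 2 with only the high arrays and 1 without the near-floor ones; day 4 (1) gave 0 without the dimmest genes, 0 with quantile normalization, 3 with the 2 groups alone, and 4 and 2 with those array sets; day 6 (8) and day 8 (10) gave 5 and 4 without the dimmest genes. Within null, day 2 (0) gave 1 without and 1 with only the high arrays; day 4 (3) gave 1 without the dimmest genes, 0 with the 2 groups alone, 5 without and 5 with only the high arrays; day 6 (9) gave 5 with arrays centred, 4 with the 2 groups alone and 5 without the high arrays; day 8 (10) gave 0 with the 2 groups alone and 2 without the near-floor arrays. The difference of the day 8 changes (5) gave 2 without the dimmest genes, 3 with arrays centred and 3 without the high arrays.

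Leaving out each array gave 0 to 1 at day 0 (1 without null day 4 replicate 2), 0 to 1 at day 2, 0 to 2 at day 4, 1 to 7 at day 6 (without Fl/Fl day 6 replicate 2 and without null day 6 replicate 1), 6 to 9 at day 8 and 7 to 12 averaged. Within Fl/Fl it gave 0 to 1, 0 to 2, 3 to 10 (3 without Fl/Fl day 6 replicate 2) and 7 to 13 at days 2 to 8, within null 0 to 1, 0 to 4, 4 to 9 and 2 to 11 (2 without null day 8 replicate 2), and 3 to 6 for the difference.

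Factors off the floor depended on the limit. At 25 there were 4, 2, 6 and 6 in Fl/Fl at days 0, 2, 6 and 8 and 2, 2, 1 and 2 in null. At 100 there were 0 at Fl/Fl day 6. Above the olfactory receptors' 95th percentile there were 9, 8, 9, 11 and 15 in Fl/Fl and 7, 9, 8, 9 and 11 in null from day 0 to day 8. By group mean there were 2 at Fl/Fl day 6, 1 at null day 6 and 2 at null day 8. Counting any probe set, or the most variable one, gave 2 at Fl/Fl day 6. At 2-fold above the day 0 median, chosen like the most variable probe set after seeing the data, there were 1, 4 and 6 in Fl/Fl and 1, 1 and 2 in null at days 4, 6 and 8. Without the high arrays there was 1 at null day 6, and without the near-floor array 2 at null day 8. Leaving out 1 array gave 1 to 2 at Fl/Fl day 6 and 2 to 5 at null day 8.

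Same-numbered arrays of the genotypes did not deviate together (correlations of -0.196 to 0.272), and the main fit did not pair them. The null deviations mix the Eif2s3y sets, so this check could not exclude a pairing. With the replicate number as a block, 1 factor was called at day 4 against day 0 in null (3 without it), and 7 of the 45 single calls were not made: En1 between the genotypes at day 8 (adjusted p = 0.0581 in limma), Meis1 (0.109), Tbx15 (0.259) and Foxf2 (0.0637) averaged over days, Foxf1 (0.0658) and Foxf2 (0.075) at day 8 in null, and Foxf2 in the difference of the day 8 changes (0.0638).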
